A study of Mus musculus with 4 samples.

Results

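The 10 genes described here sense or handle unfolded protein in the endoplasmic reticulum (ER): the stress sensors Ern1, Eif2ak3 and Atf6, the transcription factor Xbp1, the chaperones Hspa5 and Hsp90b1, the cochaperones Dnajb9 and Sdf2l1, the degradation factor Herpud1, and Wfs1. They were chosen by name, and every probe on the array whose accession mapped to one of these symbols was taken, which gave 16 probes. Of the 56605 gene probes on the array, 35087 were well above background on at least 2 arrays and were tested, and all 16 probes were among them. Ern1, Eif2ak3, Atf6, Sdf2l1, Hsp90b1 and Wfs1 had 1 probe each, and the other 4 genes had more.

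Transcripts were read on 4 Agilent arrays, each with Cy3-labelled RNA of islet cells from C57BL/6 mice, labelled male and 60 weeks old. Islets were freed with collagenase P, handpicked and dispersed to single cells, which received 10 μM of either peptide for 24 h ex vivo. MOTS-c, a short peptide encoded in the mitochondrial 12S rRNA gene, was given to 2 samples (replicates 2 and 3), and a scrambled peptide to the 2 control samples (replicates 1 and 2), and all the mice were littermates. No sample without peptide was compared, so both groups share the dispersal, the culture and exposure to a peptide, and the comparison asks whether MOTS-c altered these transcripts relative to the scrambled peptide in cells of aged mice.

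Insulin is folded and cross-linked in the ER, and beta cells make it in such amounts that the organelle works close to its capacity. When unfolded protein accumulates, Ern1 (IRE1α) splices the Xbp1 transcript into its active form, Eif2ak3 (PERK) slows translation by phosphorylating eIF2α, and Atf6 is cut in the Golgi to release a transcription factor. The transcripts of chaperones and of the machinery that removes misfolded protein then rise, which makes Hspa5, Dnajb9, Sdf2l1 and Herpud1 common readouts of this unfolded protein response. The splicing of Xbp1, the phosphorylation of Eif2ak3 and the cleavage of Atf6 are not measured by the amount of their transcripts.

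Spots well above background made up between 59.8% and 63.4% of the probes on the 4 arrays, and the arrays lay on 1 slide. Ins2 and Ins1, the insulin genes that define beta cells, had log2 signals of 18.54 to 18.64 and of 18.09 to 18.13, and 9 of 10 beta cell markers were tested. The beta cell marker Ucn3 was well above background on too few arrays to be tested. The labels give males, but none of the 7 probes for Uty, Kdm5d, Eif2s3y and Ddx3y, all on the Y chromosome, was called above background on any array (0 of 28 readings). Xist, transcribed from the inactive X chromosome, was read on all 4 arrays at 23.7 to 33.5 times the local background. In these bulk samples, fewer cells of a type and less RNA per cell cannot be told apart.

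The promoters of 3 members carry the motifs through which Atf6 and spliced Xbp1 are known to act, and they are shown because such members could answer to more than 1 sensor. The sequences come from RefSeq promoters of the assembly GRCm38.p6, in which 9 of the 10 members had an entry, and the search covered the 250 bases before each gene's start on both strands. The ER stress response element, CCAAT and CCACG with any 9 bases between them, was found in the promoters of Hspa5, 65 to 47 bases before the start, and of Hsp90b1, at 212 to 194 bases and, on the opposite strand, at 107 to 89 bases. Its second form, ATTGG and CCACG with 1 base between them, was found in Herpud1 at 52 to 42 bases. Each sequence is given 5′ to 3′ on the gene's strand, with the fixed letters of the motif in capitals, for chr2:34772005-34772063 (plus strand), chr10:86705513-86705676 (minus strand) and chr8:94386357-94386407 (plus strand).
Hspa5: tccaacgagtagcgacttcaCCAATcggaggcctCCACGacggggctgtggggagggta
Hsp90b1: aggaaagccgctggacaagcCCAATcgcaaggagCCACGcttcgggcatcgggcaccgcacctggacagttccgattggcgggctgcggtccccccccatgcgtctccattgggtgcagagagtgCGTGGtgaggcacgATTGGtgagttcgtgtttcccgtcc
Herpud1: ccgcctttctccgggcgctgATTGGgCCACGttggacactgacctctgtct

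Of all 32851 promoters in the same table, 37 (0.113%) held the first motif and 10 (0.03%) the second. The unfolded protein response element, TGACGTGG, was in 185 promoters (0.563%) and in 0 of the 9 member promoters. With 1 mismatch allowed among the last 5 letters of the first motif, 297 promoters (0.904%) matched, and the members among them were again Hspa5 and Hsp90b1. A match describes these letters and is no measure of binding.

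All 16 probes were well above background on the 4 arrays, at 11.4 to 6537 times the local background, and none was saturated. With 24 h of MOTS-c, none of them passed a test against the scrambled peptide. On 15 of the 16 the difference was smaller than the larger gap between arrays of the same group, Xbp1 A_55_P1994032 being the exception. How many of all probes do so was not computed, so this count has no background beside it. The largest difference was 1.18-fold, for Hsp90b1, and 0 of 16 probes had an unadjusted limma p under 0.05, against 7.85% of all probes tested. At an adjusted p under 0.05 the count was 0 of 16, against 0% of all probes, and at a change of 1.5-fold or more it was 0 of 16, against 5.24%. Both an unadjusted p under 0.05 and 1.5-fold were met by 0 of 16, against 3.53%. The methods' t-test also gave 0 of 16 at an unadjusted p under 0.05, with 0.151 its smallest p.

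Ern1, the kinase and endoribonuclease that splices Xbp1, had log2 signals of 9.61 and 9.63 with the scrambled peptide and of 9.58 and 9.34 with MOTS-c. Both MOTS-c values lay below both controls, by 0.16 on average (log2 difference -0.16, SE 0.141, 95% interval -0.53 to 0.21, limma adjusted p = 0.828). Without MOTS-c replicate 3, the lower of the pair, the log2 difference was -0.05.

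Eif2ak3, the kinase that phosphorylates eIF2α, had log2 signals of 11.14 and 11.26 in the controls and of 11.19 and 10.96 with MOTS-c. The groups overlapped, with MOTS-c replicate 2 between the controls and replicate 3 below them (log2 difference -0.12, SE 0.146, adjusted p = 0.874). Atf6, the membrane-bound transcription factor, had log2 signals of 10.54 and 10.57 in the controls and of 10.63 and 10.46 with MOTS-c. Its MOTS-c values lay on either side of the controls, and the log2 difference was -0.01 (95% interval -0.36 to 0.33).

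Xbp1, the transcript that Ern1 splices, was read by 3 probes, which do not separate the spliced from the unspliced form here. On the brightest (A_55_P1994032) the log2 signals were 15.48 and 15.60 in the controls and 15.41 and 15.39 with MOTS-c. This was the 1 probe of 16 whose difference between groups, -0.14, exceeded the larger gap between arrays of the same group, 0.12, and it still gave an adjusted limma p of 0.831 (95% interval -0.47 to 0.19). The other probes overlapped. A_52_P185079 gave 11.99 and 12.09 in the controls and 12.10 and 11.83 with MOTS-c, a log2 difference of -0.08. A_55_P2739653 gave 11.48 and 11.62 in the controls and 11.59 and 11.31 with MOTS-c, a log2 difference of -0.10.

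Without MOTS-c replicate 3 these dimmer probes turned to log2 differences of 0.06 and 0.04, while the brightest stayed at -0.13. With any of the other arrays left out, the 3 probes stayed negative.

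**Figure D1:**
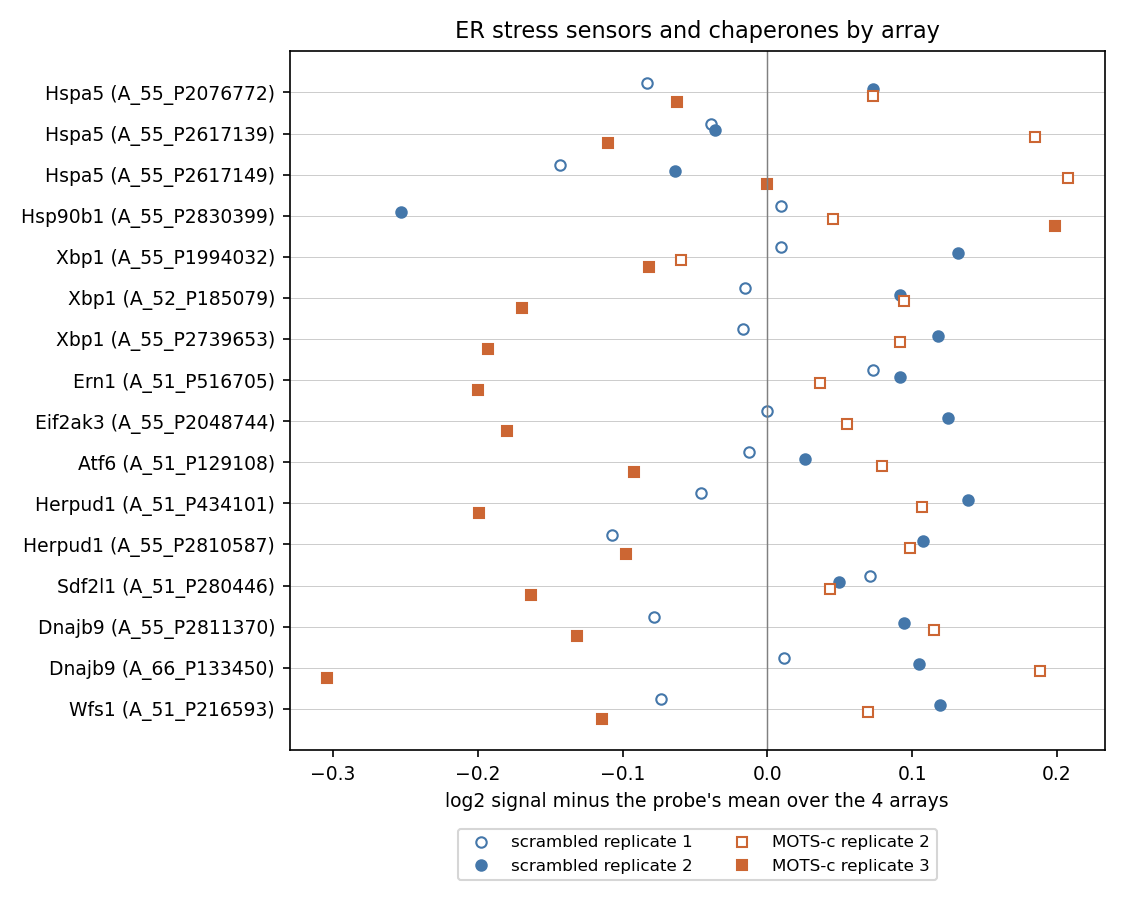
Log2 signal of each of the 16 probes on each array, as the difference from the probe's own mean over the 4 arrays (x axis), with the control arrays as circles and the MOTS-c arrays as squares, set slightly apart in height. MOTS-c replicate 3 is the lowest array for 12 of the 16 probes, and Hsp90b1 is the probe on which it is the highest.

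Hspa5 (BiP), the main chaperone of the ER lumen and the protein that holds the sensors inactive, had nearly equal group means on its brightest probe. The log2 values of A_55_P2076772 were 16.86 and 17.01 in the controls and 17.01 and 16.88 with MOTS-c, so that each group held 1 higher and 1 lower array (log2 difference 0.01, 95% interval -0.35 to 0.37). Among probes this bright, the quantile step sets the value by rank, and the probe ranked 144 of 35087 on both scrambled replicate 2 and MOTS-c replicate 2. Shifting each array by its 75th percentile instead gave 16.80, 17.16, 17.02 and 16.81 in the same order and a log2 difference of -0.06.

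A second Hspa5 probe, A_55_P2617139, gave 14.64 on both control arrays and 14.86 and 14.57 with MOTS-c, a log2 difference of 0.07 with the controls between the MOTS-c arrays. On the third, A_55_P2617149, both MOTS-c values (14.55 and 14.34) lay above both controls (14.20 and 14.28). Its log2 difference was 0.21 (SE 0.138, 95% interval -0.16 to 0.57, adjusted p = 0.774). Of the 3 probes of this gene, then, 1 separated the groups and the others did not.

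Hsp90b1 (GRP94), the ER member of the Hsp90 family and the other gene with the ER stress response element above, was the member with the largest difference. Its log2 signals were 17.36 and 17.09 in the controls and 17.39 and 17.55 with MOTS-c, and the MOTS-c pair lay above the control pair. The log2 difference was 0.24 (1.18-fold, SE 0.154, 95% interval -0.16 to 0.65, adjusted p = 0.764 in limma). It was smaller than the gap of 0.26 between the control arrays. By rank among all probes tested, the probe stood at 76 and 127 in the controls and at 71 and 48 with MOTS-c, and the 75th percentile shift gave a log2 difference of 0.18. In limma with a trend on intensity it was the 1 member probe at an unadjusted p under 0.05, with an adjusted p of 0.506.

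Dnajb9 (ERdj4), a cochaperone of Hspa5 and a target of spliced Xbp1, had log2 signals of 13.11 and 13.28 in the controls and of 13.30 and 13.06 with MOTS-c on its brighter probe, A_55_P2811370. MOTS-c replicate 2 lay above both controls and replicate 3 below them, for a log2 difference of -0.02 (95% interval -0.42 to 0.39). The dimmer probe, A_66_P133450, showed the same order more widely, at 9.03 and 9.12 in the controls and 9.21 and 8.71 with MOTS-c. Its gap of 0.49 between MOTS-c arrays was the widest of the 16 probes, and its log2 difference was -0.12 (95% interval -0.65 to 0.42).

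Sdf2l1, a partner of Hspa5 that helps to keep proteins from aggregating, had log2 signals of 14.91 and 14.89 in the controls and of 14.88 and 14.68 with MOTS-c. Both MOTS-c values lay below the controls, replicate 2 only by the third decimal (log2 difference -0.12, SE 0.135, adjusted p = 0.867). Without replicate 3 the log2 difference was -0.02.

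Herpud1, a membrane protein that assembles the machinery of ER-associated degradation, had log2 signals of 14.61 and 14.80 in the controls and of 14.76 and 14.46 with MOTS-c on the brighter probe, A_51_P434101. The groups overlapped (log2 difference -0.09, 95% interval -0.53 to 0.34). On the dimmer probe, A_55_P2810587, the values were 11.76 and 11.98 in the controls and 11.97 and 11.77 with MOTS-c, and the log2 difference was 0.00. Of the 3 genes with a motif in the promoter, Hsp90b1 alone had groups that did not overlap on its brightest probe. A dimmer Hspa5 probe, A_55_P2617149, also separated the groups. Over all genes, the groups did not overlap on the brightest probe for 42.5%. A count over 3 genes is too small to be told from that share, so no link to the motif is drawn.

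Wfs1, an ER membrane protein whose loss causes Wolfram syndrome with diabetes, and which restrains Atf6, had log2 signals of 12.87 and 13.06 in the controls and of 13.01 and 12.83 with MOTS-c. The values interleaved, and the log2 difference was -0.05 (95% interval -0.43 to 0.34).

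**Figure D2:**
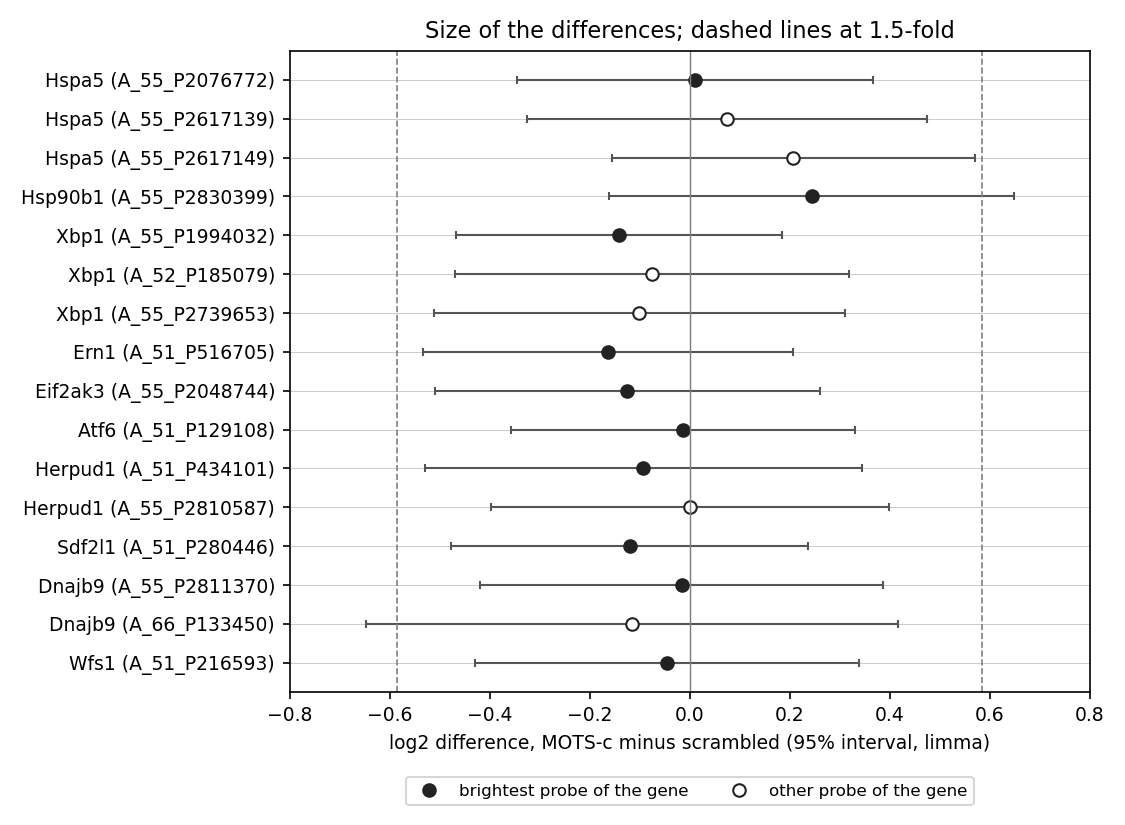
Log2 difference of MOTS-c minus scrambled for each probe (points; filled, brightest probe of the gene) with its 95% interval from limma (bars), and dashed lines at a 1.5-fold change either way. All 16 intervals hold 0, and those of Hsp90b1 and of the dimmer Dnajb9 probe reach past a dashed line.

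The intervals bound what these arrays could show. With SEs of 0.124 to 0.202 on the log2 scale, 14 of the 16 intervals lay within a 1.5-fold change either way. A smaller change of these transcripts could not be told from the spread between arrays, and an exact permutation test of 2 arrays against 2 cannot give a two-sided p below 0.333.

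In direction, 8 of the 10 genes had a negative log2 difference on their brightest probe and 2 a positive one, Hspa5 and Hsp90b1. Their median was -0.07, beside -0.00 over the brightest probes of all 15470 genes tested. The groups did not overlap on 5 of 16 probes, 2 higher and 3 lower with MOTS-c, against 38.0% of all probes tested (19.4% higher and 18.6% lower). That share, 31.2%, is below the background.

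The 2 MOTS-c arrays differed in the same direction on most member probes. MOTS-c replicate 3 lay below MOTS-c replicate 2 on 15 of 16 probes, the exception being Hsp90b1, where 56.5% of all probes did so. It was the lowest of the 4 arrays on 12 of the 16 probes, against 33.3% of all probes tested. By gene it was lowest on 8 of 10 brightest probes, against 38.0%. The median gap between the MOTS-c arrays was 0.22 on the member probes, and between the control arrays 0.12.

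Probes within the members' range of mean level, 9.02 to 17.35, were set beside these values, with no matching of brightness inside that range. Among the 15853 probes with a mean level in the range of the members, the median gaps were 0.13 between MOTS-c arrays and 0.11 between control arrays, and 36.4% were lowest on MOTS-c replicate 3. In the same range the median size of the difference between groups was 0.11, beside 0.10 for the members, and 1.57% of probes differed by 1.5-fold. An unadjusted limma p under 0.05 was reached by 4.59% of these probes, a lower share than the 7.85% of all probes tested. The controls also differed in 1 direction, with scrambled replicate 2 above replicate 1 on 14 of 16 member probes. The share of all probes doing so was not computed, so this count has no background beside it.

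The sign of the member median followed which array was in the comparison. It was -0.12 without scrambled replicate 1 and -0.15 without MOTS-c replicate 2, with 9 of 10 genes negative in either case. Without scrambled replicate 2 it was 0.00, with 5 genes negative, and without MOTS-c replicate 3 it was 0.05, with 4 genes negative. No member probe reached an unadjusted limma p under 0.05 in any of these 4 comparisons.

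**Figure D3:**
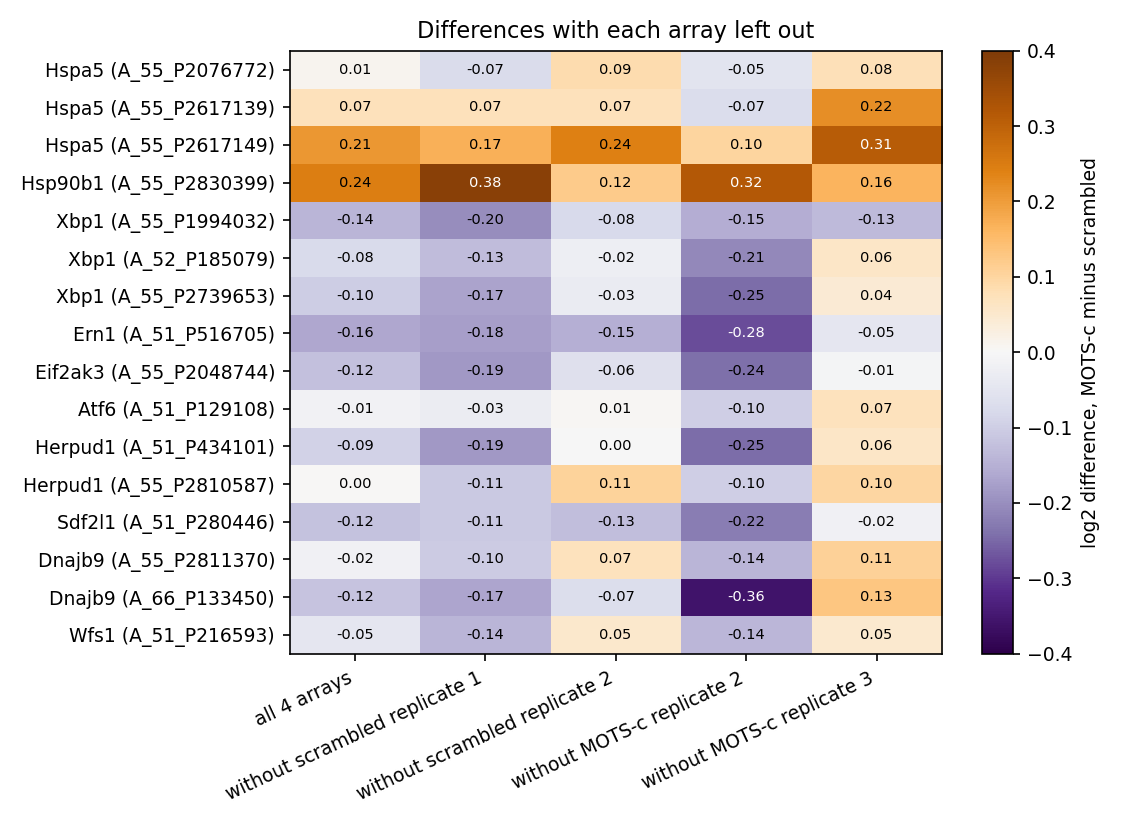
Log2 difference of MOTS-c minus scrambled for each member probe (rows) with all arrays and with each array left out in turn (columns), printed in each cell and shaded from purple (lower with MOTS-c) to orange (higher). Without MOTS-c replicate 2 most rows are negative, and without MOTS-c replicate 3 most are positive. The sign is kept throughout by 6 probes, among them Hsp90b1 (positive) and the brightest Xbp1 probe (negative).

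The summed signal of markers was lowest on MOTS-c replicate 3 for acinar, delta and PP, ductal, endothelial and mesenchymal cells. It was lowest on another array for beta, alpha, plasma and B cells and for macrophages. Acinar cells, which secrete digestive enzymes, are rich in ER and can remain attached to picked islets. Their 6 tested markers of 13 listed had a summed signal of 5821 and 6849 in the controls and of 4299 and 3162 with MOTS-c. On MOTS-c replicate 3, 5 of the 6 were lowest, against 38.0% of all genes. Cela1, a digestive protease, had a log2 difference of -0.76 (adjusted p = 0.499), and Bhlha15, the acinar secretory transcription factor, also had -0.76. Cela2a and Cel had -0.42 and -0.14 with overlapping groups. Ctrb1, a chymotrypsinogen, lay the other way, with both MOTS-c arrays above both controls and a log2 difference of 0.33. Cpa1, Prss2, Pnlip, Amy2a5, Rbpjl and Ptf1a were well above background on too few arrays to be tested. The summed signal of the 9 tested beta cell markers was 901031 and 923458 in the controls and 884871 and 897248 with MOTS-c. Ins2 and Ins1 were the brightest of these markers, at levels where the quantile step sets the value by rank. Ins2 was at 18.54 on scrambled replicate 1 and on both MOTS-c arrays. This sum could therefore hardly move and is no measure of beta cell content. The part of any of these cell types in the member values was not tested.

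Around the members, 131 other genes of ER protein handling were read in 7 lists through the brightest probe of each. Of these, 7 (5.34%) had an unadjusted limma p under 0.05, 4 higher and 3 lower with MOTS-c, against 8.61% of all genes (2.82% higher and 5.79% lower), and 0 had an adjusted p under 0.05. Groups did not overlap for 60 genes (45.8%, against 42.5% of all genes, 19.8% higher and 22.7% lower), and the median log2 difference was -0.00. A change of 1.5-fold was reached by 2 of the 131, Nupr1 and Creb3l3, against 5.65% of all genes.

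The list with the most genes at an unadjusted limma p under 0.05 was the PERK arm and integrated stress response. It had 3 of 20 genes, 2 lower and 1 higher, beside 8.61% of all genes. Nupr1, a stress-induced chromatin protein, had log2 signals of 11.04 and 10.67 in the controls and of 9.83 and 9.58 with MOTS-c. The groups were separated by more than either internal gap, and the log2 difference of -1.15 (2.22-fold lower, SE 0.186, 95% interval -1.64 to -0.66) was the largest of the 131 genes. Its adjusted p in limma, 0.474, was the smallest of all probes tested.

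Bbc3 (PUMA), a promoter of apoptosis, was at 11.05 and 11.35 in the controls and at 10.69 and 10.75 with MOTS-c (log2 difference -0.49, adjusted p = 0.566). Atf3, a transcription factor induced by Atf4 and by other stresses, lay the other way, at 10.00 and 9.97 in the controls and 10.58 and 10.46 with MOTS-c (log2 difference 0.53, adjusted p = 0.515). Eif2ak2, the kinase of eIF2α that senses double-stranded RNA, had a log2 difference of 0.39.

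The central genes of this arm are given although they lie outside the rule for names and were chosen after their values were seen. Atf4, the transcription factor translated when eIF2α is phosphorylated, was at 17.20 and 17.05 in the controls and at 16.97 and 16.84 with MOTS-c (log2 difference -0.22, adjusted p = 0.760). Trib3 and Chac1, among its targets, had log2 differences of -0.15 and -0.24 with both MOTS-c arrays below both controls. Asns, Sesn2, Ddit4 and Atf5 of the same list had -0.04, -0.08, -0.03 and -0.02, and Atf3 had 0.53. Ddit3 (CHOP), which promotes death under prolonged stress, had overlapping groups and a log2 difference of -0.14, which was 0.02 without MOTS-c replicate 3. Over the whole list of 20 genes, 7 had both MOTS-c arrays below both controls and 3 above, beside 22.7% and 19.8% of all genes, and the median log2 difference was -0.06. Groups overlapped for the other 10 genes of the list.

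Among the 10 other transducers and processing factors, 4 had both MOTS-c arrays below the controls and 1 above, beside 22.7% and 19.8% of all genes, and the median log2 difference was -0.20. The 5 of 10 genes whose groups did not overlap compare with 42.5% of all genes. Creb3l3, a membrane-bound transcription factor related to Atf6, was at 9.08 and 9.47 in the controls and at 8.78 and 8.38 with MOTS-c (log2 difference -0.69, adjusted p = 0.564). Creb3l1, of the same family, had a log2 difference of -0.31. Mbtps2, the protease that makes the second cut in Atf6, had 0.29, and Cisd2, another gene mutated in Wolfram syndrome, 0.18.

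ER chaperones and cochaperones other than the members had 1 of 17 genes at an unadjusted limma p under 0.05, beside 8.61% of all genes. Their median log2 difference was 0.06, with 7 genes higher and 3 lower on both MOTS-c arrays, beside 19.8% and 22.7% of all genes. Dnajc1, a cochaperone of Hspa5, was at 10.61 and 10.42 in the controls and at 10.93 and 11.15 with MOTS-c (log2 difference 0.53, adjusted p = 0.543). The calnexin-like chaperone Clgn had a log2 difference of 0.32. At the other end, Dnajb12 and Dnajc10, both J-domain proteins, had -0.30 and -0.14.

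Disulfide isomerases and oxidases had 1 of 18 genes at an unadjusted limma p under 0.05, beside 8.61% of all genes, and a median of -0.00. Ero1a, the oxidase that recharges protein disulfide isomerase, was at 12.42 and 12.15 in the controls and at 12.65 and 12.76 with MOTS-c (log2 difference 0.42, adjusted p = 0.615). Its islet-enriched relative Ero1b had a log2 difference of -0.16. The isomerases Tmx3 and Txndc5 had 0.25 and -0.12.

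ER-associated degradation had 0 of 27 genes at an unadjusted limma p under 0.05, beside 8.61% of all genes, and 0 at an adjusted p. Its median log2 difference was 0.03. The ends of its range were Uggt2, a folding sensor of glycoproteins (0.43), and Edem3, a mannosidase that marks glycoproteins for removal (0.36), against the ubiquitin-conjugating enzyme Ube2j1 (-0.13) and the ligase Rnf139 (-0.12). ER calcium handling also had 0 of 11 genes at an unadjusted limma p under 0.05, beside the same 8.61%, with a median of 0.05. In it the calcium pump Atp2a3 had a log2 difference of -0.48, the leak channel Tmco1 -0.01, the plasma membrane channel Orai1 0.29 and the release channel Itpr2 0.32.

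ER entry, glycosylation and export had 1 of 28 genes at an unadjusted limma p under 0.05, beside 8.61% of all genes, and a median of -0.06. Spcs3, a subunit of the signal peptidase, was at 12.13 and 12.01 in the controls and at 12.39 and 12.45 with MOTS-c (log2 difference 0.35, adjusted p = 0.610). Rpn1, an oligosaccharyltransferase subunit, had a log2 difference of -0.35 and the retrieval receptor Kdelr3 -0.29. Sec62, of the translocon, had 0.25, which was -0.16 without MOTS-c replicate 3.

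**Figure D4:**
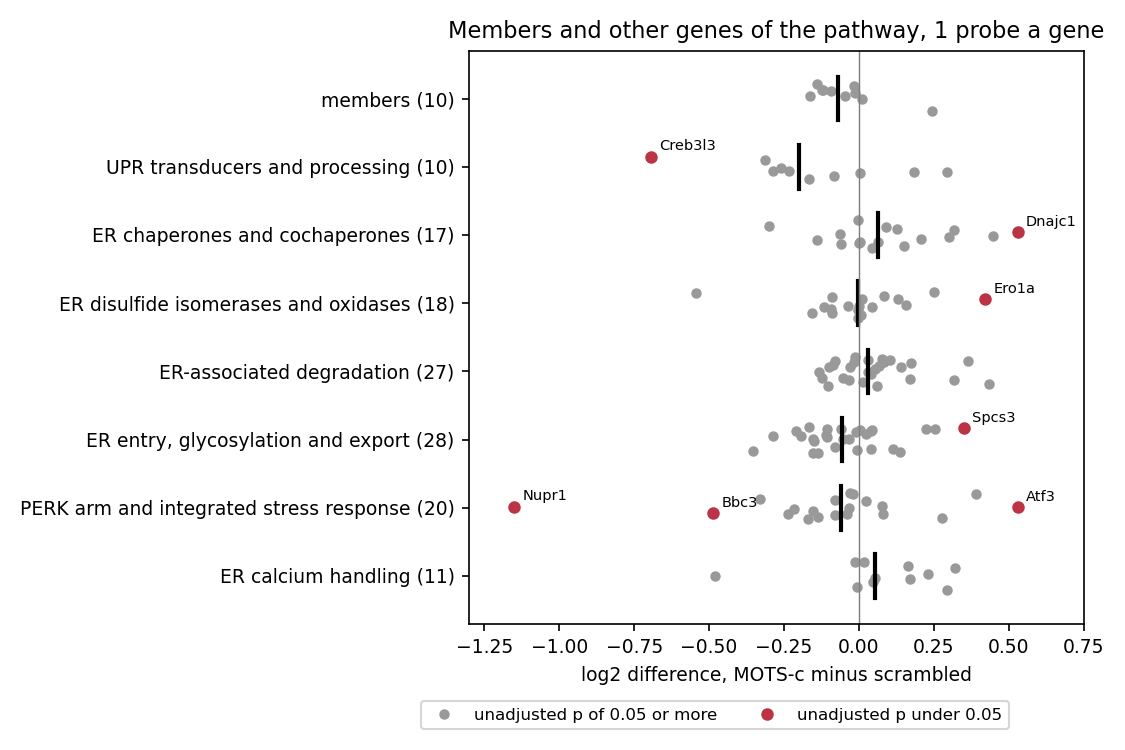
Log2 difference of MOTS-c minus scrambled (x axis) for the members and for the genes of the 7 lists, 1 point a gene, with the number of genes in parentheses, the list's median as a black bar and genes at an unadjusted limma p under 0.05 in red. No member is red, Nupr1 is the farthest point at -1.15, and the list medians lie between -0.20 and 0.06.

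The profile of Hspa5 was compared with those of the pathway lists, and with no gene outside them. Over the 4 arrays, with each gene centred on its own mean, the pathway genes with the smallest root mean square difference from its brightest probe were Manf, a secreted partner of Hspa5 (0.0148 on the log2 scale), Txndc12, an ER thioredoxin (0.0190), and Sec23b, a coat protein of export vesicles (0.0337), of 129 genes compared. Manf stood at 14.75 and 14.93 in the controls and at 14.89 and 14.79 with MOTS-c, with the same pair of arrays higher as in Hspa5. With 4 arrays this is a likeness of profile and is given without a test.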

How the data were processed

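Per the labels, RNA of islet cells given scrambled peptide or MOTS-c was hybridised in 1 color to 4 Agilent arrays, 2 per group. The authors deposited the processed signal intensity of each spot, extracted with Feature Extraction (11.0.1.1 per the file headers), background corrected and not normalized between arrays; a second deposited table holds the same intensity values rounded. Spots marked as controls or outliers were dropped, and the remaining intensities were averaged per probe on the log2 scale. A probe had to exceed background clearly on 2 or more arrays, in place of a Flag A filter that the methods leave undefined, and the probes kept were quantile normalized. Signal levels of different probes were set side by side only to pick brightest probes, rank probes, define a range of level and sum markers. Amounts of different transcripts were not compared.

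limma 3.58.1 in R 4.3.3 compared the groups over 35087 probes with Benjamini-Hochberg adjustment, 2 residual degrees of freedom and 2.64 prior ones. The number of arrays limits the precision. The steps were tested on simulated data. Symbols came from accessions through the RefSeq table of GRCm38.p6, which named 32994 of the probes kept; the array files are annotated on mm9, so no probe coordinates are given.

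Members and lists were chosen with earlier results of these data known. All member probes were named. Of each list, up to 2 genes at either end of the log2 differences among probes well above background on all 4 arrays, every gene at an unadjusted limma p under 0.05, and the 3 genes most like Hspa5 were named. Alternatives were a 75th percentile shift, normexp with an offset of 50, the rounded table, no filter or a strict filter on dim probes, leaving out each array, limma with a trend, the methods' t-test, averaging the probes of a gene, and a p joined to a 1.5-fold change. Some genes of the cell type lists are not reported here.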

Additional observations from a re-analysis of the deposited data

How the results depend on the processing

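The count of member probes at an unadjusted limma p under 0.05 was 0 under every alternative except limma with a trend, which gave 1 (Hsp90b1), and 0 of them had an adjusted p under 0.05 under any. Of 176 member results recomputed, 157 kept their sign and 19 reversed, on 10 of the 16 probes. The methods' t-test and limma with a trend use the same log2 differences as the main fit. No sign could change under them, so the number kept overstates the stability. The 75th percentile shift reversed the brightest Hspa5 probe (-0.065) and the dimmer Herpud1 probe (-0.012), and the latter was also reversed by normexp (-0.015) and the rounded table (-5.1e-05). Tmco1 was at 0.047 with normexp. With an array left out in turn, log2 differences that changed sign ranged from -0.073 to 0.086 for Hspa5 A_55_P2076772, from -0.071 to 0.22 for Hspa5 A_55_P2617139, from -0.21 to 0.057 for Xbp1 A_52_P185079, from -0.25 to 0.042 for Xbp1 A_55_P2739653, from -0.099 to 0.070 for Atf6, from -0.25 to 0.059 for Herpud1 A_51_P434101, from -0.11 to 0.11 for Herpud1 A_55_P2810587, from -0.14 to 0.11 for Dnajb9 A_55_P2811370, from -0.36 to 0.13 for Dnajb9 A_66_P133450, and from -0.14 to 0.052 for Wfs1. Outside the members they ranged from -0.74 to 0.17 for Kdelr3, from -0.16 to 0.66 for Sec62, from -0.092 to 0.064 for Tmco1 and from -0.30 to 0.023 for Ddit3. The 7 pathway genes at an unadjusted p under 0.05 became 13 with normexp and 14 with a trend, and 2 (without scrambled replicate 2) to 11 (without MOTS-c replicate 2) with an array left out. The 2755 of all probes became 4633 without a filter and 1596 (without scrambled replicate 2) to 4576 (without MOTS-c replicate 2) with an array left out, where the lone array is assumed to vary like the others. The methods' t-test called 1 probe at an adjusted p under 0.05, of H2ac12, which is no member (named after its value was seen). The causes were not tested. No paired analysis was possible because the groups share only replicate number 2.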

Other observations

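Among alpha cell markers, the transcription factor Irx2 was at 4.60 and 4.26 in the controls and at 5.12 and 5.10 with MOTS-c (log2 difference 0.68), and Gcg, which encodes glucagon, had a log2 difference of 0.11. Among the beta cell markers, Slc2a2, the glucose transporter GLUT2, was at 5.23 and 5.26 in the controls and at 3.81 and 4.02 with MOTS-c (log2 difference -1.33), with 3 of the 4 arrays well above background. Of the 9 tested beta cell markers, 4 had both MOTS-c arrays below both controls and 3 above, beside 22.7% and 19.8% of all genes, with a median log2 difference of -0.05. Those above were Mafa (0.16), Nkx6-1 (0.12) and Iapp (0.07). Irx2 and Slc2a2 passed an unadjusted limma p of 0.05, and none of the genes passed it after adjustment.

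Antibody-secreting cells, which also depend on Xbp1, were represented by 2 tested markers of 9 listed, Sdc1 and Mzb1, with log2 differences of 0.01 and 0.01. Jchain, Cd79a, Cd79b, Ms4a1, Tnfrsf17 and Pou2af1 were well above background on too few arrays to be tested.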
